A study of Mus musculus with 8 samples.

Results

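The peaks described here are the stretches of RNA recovered with YTHDF3 that lay in the 3' untranslated regions (3' UTRs) of mRNAs. They were all the peaks that the deposited annotation placed in a 3' UTR, 12652 of 87940 peaks over 4 lists. The lists came from RIP-seq, in which a protein is immunoprecipitated together with its bound RNA and the RNA is sequenced beside an input sample of the same lysate. The cells were mouse embryonic fibroblasts (MEFs) prepared from wild-type C57BL/6 embryos of 13.5 days and used at passage 5 to 6. They were grown under normal conditions, in serum-containing medium, or starved for 2 h in Hank's balanced salt solution with HEPES, which holds neither serum nor amino acids. Each condition had 2 replicates, and each replicate an IP and an input library of poly(A) RNA, 8 libraries in all. The comparison asks which 3' UTRs YTHDF3 bound under normal conditions and upon nutrient deprivation.

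YTHDF3 is a cytoplasmic member of the YTH family, whose YTH domain binds N6-methyladenosine (m6A), the commonest internal modification of mRNA. METTL3 and its partners write the mark on adenosines within a short sequence whose core is often GGAC, and many m6A sites lie near stop codons and in 3' UTRs. The 3' UTR also carries binding sites of miRNAs and of proteins that set the stability and translation of the mRNA, such as AU-rich elements.

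The 3' UTR peaks numbered 2969 of 17546 in normal replicate 1, 2944 of 22189 in normal replicate 2, 3913 of 23294 in starved replicate 1 and 2826 of 24911 in starved replicate 2. Their share of all peaks was 15.1% ± 2.58 under normal conditions and 14.1% ± 3.86 upon starvation (SD, n = 2). The difference of -1.02 percentage points was smaller than the spread between replicates (exact permutation test over the 4 lists, two-sided, p = 0.667, where the smallest possible p is 0.33). In both conditions replicate 1 had the larger share. The study counts a peak as a target when its IP reached 2 times its input at a p below 0.0001. By this threshold 2797 to 3877 of these peaks were kept per list, and they covered 1769 to 2340 genes. A 3' UTR peak was present in any list for 3147 genes and in every list for 958 genes. The lists hold reads within called peaks only, 8818619 to 19271667 IP reads per list, and 3' UTR peaks took 20.1% to 25.7% of them. Of 10 fibroblast marker genes, 4 or 5 had a peak anywhere in the transcript in each list and 1 to 3 had one in the 3' UTR (*Pdgfra*, *Pdgfrb*, *Prrx1*), whereas markers of epithelial, blood and neural cells had none. Of the 3 endothelial markers, *Kdr* had a 3' UTR peak in every list.

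The following GGAC sites were read from the RefSeq sequence (GRCm38.p6, mm10) of the regions to which the results below refer. They are shown because they let the m6A core motif be seen in the bound sequence. Each is the site nearest to the mean centre of the best window of the 4 lists, among sites whose GGAC lay in called peaks of every list. Letters run 5′ to 3′ on the transcribed strand, and GGAC is in capitals.
*Rgs16* (chr1:153744055-153744082, plus strand, base 212 of a 3' UTR of 1613 bases): tcctcatttccaGGACctgtgactgagg
*Lif* (chr11:4271179-4271206, plus strand, base 1857 of 3180): ccgagacgcctgGGACacagaccaggaa
*Enc1* (chr13:97250664-97250691, plus strand, base 171 of 2535): acactctcaagtGGACatgaaggaaggg
*Trib1* (chr15:59655275-59655302, plus strand, base 586 of 2398): caccccaccttgGGACctatcccctgca
*Csf1* (chr3:107741477-107741504, minus strand, base 1667 of 2111): agcaggggggaaGGACactggagacttt
*Mnt* (chr11:74843348-74843375, plus strand, base 40 of 2405): gggcagggaaggGGACctgactgcccct
*Rgma* (chr7:73418618-73418645, plus strand, base 597 of 1866): ctaagcccatggGGACacccccaagacc
*Ccnd2* (chr6:127126247-127126274, minus strand, base 4073 of 4627): tctaagcccaaaGGACtcccccttgctt
*Igfbp5* (chr1:72858881-72858908, minus strand, base 3481 of 4312): cagaaccctagaGGACtctaggtgaaat
*Rtl5* (chrX:102068452-102068479, minus strand, base 596 of 2085): catgagtgcaatGGACaacttgactgag
Of these sites, those of *Ccnd2* and *Igfbp5* read GGACT, and the rest have another base after the C. The *Csf1* region held 11 GGAC sites, all 11 in bases covered by a peak in every list. The *Mnt* region held 17, of which 16 were so covered, and the *Rgs16* region held 13, of which 7 were. The *Fosb* and *Pml* regions, described below, held 10 and 6 GGAC sites, and none lay in bases that all 4 lists covered.

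Transcripts with a 3' UTR peak had long 3' UTRs. The median annotated 3' UTR was 2541, 2767, 2488 and 2704 bases in normal replicates 1 and 2 and starved replicates 1 and 2. Genes with exon peaks only had medians of 1156, 1306, 1139 and 1319 bases in the same order. The difference was 1.10 ± 0.05 on the log2 scale (SD, n = 4 lists) and had the same sign in 4 of 4 lists (exact sign-flip permutation test, two-sided, p = 0.13, the smallest possible). A longer 3' UTR offers more room for a peak, and the share of this difference that length alone gives was not tested. Most genes with a 3' UTR peak also had an exon peak, 63.7% to 74.3% per list. A single 3' UTR peak was found in 63.9% to 66.3% of genes. The median peak spanned 380 to 440 bp.

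Peak centres lay towards the stop codon side of the 3' UTR. The median position was 39.6%, 40.9%, 39.5% and 37.8% of the way from the stop codon to the transcript end in normal replicates 1 and 2 and starved replicates 1 and 2. Condition means were 40.2% ± 0.902 and 38.6% ± 1.19 (SD, n = 2), with both starved lists below both normal lists (exact permutation test, two-sided, p = 0.33, the smallest possible). The 20% of the 3' UTR next to the stop codon held 24.4% to 27.8% of centres and the last 20% 9.72% to 13%, where an even spread would give 20% to each. The annotation gives the 100 bp before a transcript end to a class of its own, the transcription termination site (TTS), so it removes peaks from this last stretch. Within 200 bases of the stop codon lay 12.9%, 11.3%, 12.9% and 13% of centres, and an even spread over the same 3' UTRs would give 8.91%, 7.98%, 8.94% and 8.25%. The median centre was nevertheless 1043 to 1189 bases from the stop codon.

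**Figure D1:**
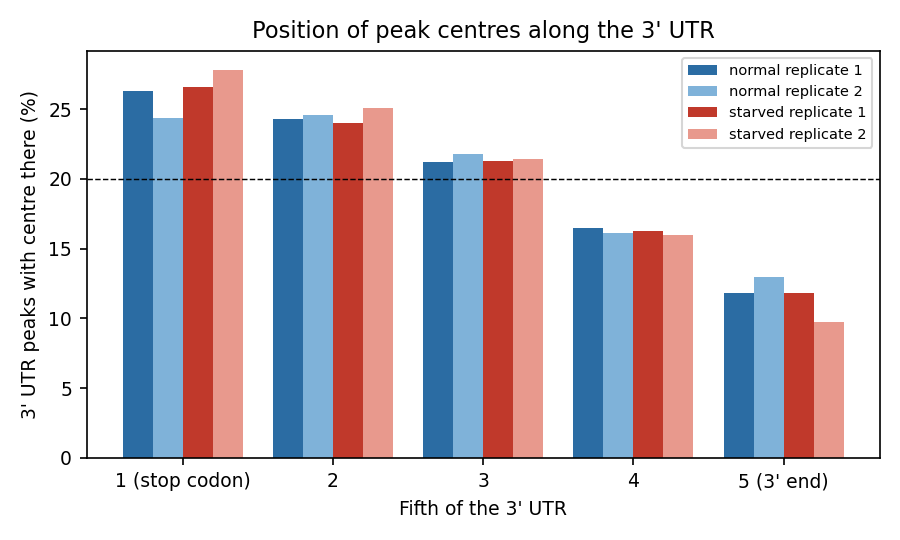
Share of 3' UTR peak centres (percent, vertical axis) in 5 equal stretches of the annotated 3' UTR from the stop codon (left) to the transcript end (right), with 1 bar per list and a dashed line at the 20% of an even spread. In each list the last stretch holds the smallest share, 9.72% to 13%, and the first 3 lie above the line.

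The m6A core motif was more frequent in 3' UTR peaks than in the rest of the same genes' 3' UTRs. In windows of 200 bp around peak centres, read on the transcribed strand, GGAC occurred in 49.9%, 47.9%, 50.7% and 52.9% of windows in normal replicates 1 and 2 and starved replicates 1 and 2. In windows of the same length outside any peak in the same genes it occurred in 36.9%, 37.6%, 37.4% and 38.4%. The difference was 12.8 ± 1.76 percentage points (SD, n = 4 lists), higher in 4 of 4 lists (exact sign-flip permutation test, two-sided, p = 0.13, the smallest possible, and 0.143 after Benjamini-Hochberg adjustment over 8 sequence measures). Over all 3' UTRs, 41.9% of 116478 windows of this length held GGAC. The longer GGACT, which contains GGAC, was found in 20.4% of peak windows and 15.2% of control windows (16.7% over all 3' UTRs), a difference of 5.2 ± 1.22 points with the same p. GAACT, another of the sequences at which m6A is known to occur, did not follow: 19.3% of peak windows and 19.7% of control windows held it, a difference of -0.456 ± 0.593 points (exact sign-flip permutation test, p = 0.25; 19.4% over all 3' UTRs).

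Base composition moved with the motif. Peak windows had 48.5% G and C and control windows 41.9%, a difference of 6.60 ± 0.708 points over the 4 lists. Sequences made of the same 4 letters as GGAC, counted on the transcribed strand, were also denser in peaks. GGAC was 1.48 ± 0.0725 times as dense in peaks as in control windows (SD, n = 4 lists), GAGC 1.43 ± 0.0650 times, GCAG 1.42 ± 0.0729, CAGG 1.41 ± 0.0540, AGGC 1.39 ± 0.0544 and GGCA 1.34 ± 0.0557. The GGAC ratio was the largest of the 6 in 4 of 4 lists. The share of the GGAC difference that goes with base composition was not tested further. The density of GGAC did not peak at the centre. It was 3.43 to 3.93 per kb within 100 bp of the centre and 3.68 to 3.87 per kb at 250 to 500 bp upstream, and 3.09 to 3.33 per kb at the same distance downstream. These stretches were read from the genome. Since 24.6% to 29.1% of centres lay within 500 bases of the stop codon, part of the upstream sequence was not 3' UTR, unlike the control windows.

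**Figure D2:**
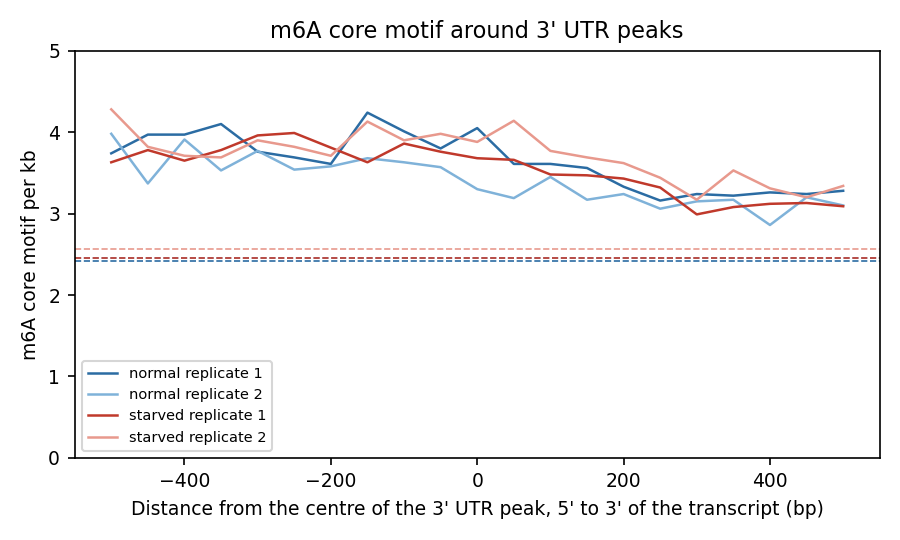
Density of the m6A core motif GGAC (sites per kb of genomic sequence on the transcribed strand, vertical axis) against distance from the centre of 3' UTR peaks (bp, horizontal axis, bins of 50 bp), 1 line per list. Dashed lines give each list's density in 200 bp control windows outside peaks of the same genes, and the solid lines stay above them over the whole 500 bp on both sides. The control windows are 3' UTR sequence only, and the solid lines also include sequence beyond the 3' UTR.

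A-rich and U-rich elements were scarcer in the peaks, whose windows also had fewer A and T bases. The share of these differences that goes with base composition was not tested. ATTTA, the core of AU-rich elements, to which proteins that destabilise mRNA bind, was in 17.8% of peak windows and 29.9% of control windows, a difference of -12.1 ± 1.24 points (27.4% over all 3' UTRs). A run of TTTTT was in 29.4% and 42.6% (37.6% over all 3' UTRs). TGTANATA, the element bound by Pumilio proteins, was in 2.89% and 4.91% (4.17% over all 3' UTRs). AATAAA, the polyadenylation signal, was in 5.31% and 16.5% (15.9% over all 3' UTRs), and peaks at transcript ends belong to the TTS class, not to these peaks. Each of these 4 differences was negative in 4 of 4 lists (exact sign-flip permutation test, p = 0.13, adjusted p = 0.143).

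The enrichment of 3' UTR peaks over input was close to that of other peaks. The median IP/input fold, IP reads over input reads after the authors' scaling, was 3.31, 3.07, 3.12 and 3.05 in normal replicates 1 and 2 and starved replicates 1 and 2. In 14.2% to 27.0% of these peaks the input had at most 3 reads, and the fold was set against 3 reads and is a lower bound. On the log2 scale 3' UTR peaks differed from all others by 0.11, 0.01, 0.09 and -0.03, a mean of 0.04 ± 0.06 (SD, n = 4 lists, exact sign-flip permutation test, p = 0.375). Against exon peaks alone the difference was 0.13 ± 0.07 and positive in 4 of 4 lists (p = 0.13, the smallest possible for this exact permutation test). Within the 494 genes that had both a 3' UTR and an exon region in all 4 lists, the median difference of 3' UTR minus exon was -0.01, -0.11, 0.05 and -0.15, a mean of -0.05 ± 0.09 (exact sign-flip permutation test, p = 0.375).

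To compare conditions, peaks that overlapped between lists were joined, which gave 39979 regions, of which 5392 held a 3' UTR peak in at least 1 list. Of these, 2675 (49.6%, against 49% of all regions) were called in 1 list alone and 1214 (22.5%, against 16.3% of all regions) in all 4. Regions present in both normal lists alone numbered 90, or 1.67%, against 1.30% of all regions. Regions present in both starved lists alone numbered 210, or 3.89%, against 4.70% of all regions. The lists of replicate 1 alone shared 235, or 4.36%, against 2.76% of all regions. The lists of replicate 2 alone shared 175, or 3.25%, against 7.4% of all regions. Both numbers were of the same order as those shared within a condition. Peaks of any annotation were joined, so a region could reach beyond the 3' UTR, and its reads include that part. The comparison below uses the 870 regions, in 816 genes, with a 3' UTR peak in each of the 4 lists. It leaves out 3' UTRs that lacked a peak in any list, among them those that may have changed most, and p-values measure only the spread between these samples, since the labels do not say that replicates were separate cultures.

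The 3' UTRs with the most YTHDF3-bound RNA per kb had many input reads as well. *Cd44*, the receptor for hyaluronan (region chr2:102811031-102814580), held 95399 and 128505 IP reads in normal replicates 1 and 2, and 132127 and 107282 in starved replicates 1 and 2. *Ccnd2*, a G1 cyclin (chr6:127125081-127130730), held 51745, 83868, 96263 and 108917 in the same order. *Igfbp5*, a secreted binder of insulin-like growth factors (chr1:72858081-72862750), held 25026, 55289, 64501 and 95900. With *Csf1*, described below, and *Ywhag*, which encodes the 14-3-3 gamma adaptor, these were the 5 regions with the most IP reads per kb. Input reads in the 5 regions ranged from 4232 to 45487, and the folds over input from 2.04 to 3.46. Apart from *Csf1*, none of the 5 passed the test of IP reads per base (edgeR adjusted p from 0.523 to 0.989).

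A high IP/input fold was found in other regions with a 3' UTR peak, with far fewer reads. They were ranked among regions with at least 20 IP reads and more than 3 input reads in every list. The 5 with the highest lowest fold of the 4 lists were *Rtl5*, *Adcy1*, *Ptgir*, *Tbc1d24* and *Zfp41*. *Rtl5* (chrX:102066671-102071550), a gene derived from a retrotransposon Gag protein, had folds of 4.86, 4.55, 5.18 and 5.22 in normal replicates 1 and 2 and starved replicates 1 and 2, the narrowest range of the 5, on 1220 to 2175 IP reads per list. Its region spans 4880 bases and its annotated 3' UTR 2085, so part of the region lay outside the 3' UTR. The region also overlaps *Nhsl2* on the opposite strand, and since the peaks carry no strand the reads of the 2 genes cannot be told apart. *Adcy1*, an adenylyl cyclase (chr11:7170241-7172760), had folds of 6.64, 5.00, 7.32 and 6.56. *Ptgir*, the prostacyclin receptor (chr7:16908591-16910390), had 7.50, 5.43, 8.71 and 5.83. In the zinc finger gene *Zfp41* both starved lists, 4.89 and 4.56, lay below both normal lists, 10.4 and 6.25, and in *Tbc1d24* likewise, 4.68 and 4.58 against 6.25 and 4.70. In *Rtl5* the order was the opposite, and in the other 2 the conditions overlapped.

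No 3' UTR region passed the test of a changed IP/input ratio upon starvation. The test was edgeR's quasi-likelihood test with Benjamini-Hochberg adjustment over all 6531 regions called in the 4 lists, of any annotation. Over all regions, 0.0153% were called higher and 0% lower, and the smallest adjusted p of a 3' UTR region was 0.999. At an unadjusted p under 0.05 in the edgeR test, 9 of the 870 3' UTR regions were higher and 16 lower, beside 82 and 101 of all 6531 regions. DESeq2 also called 0 of the 870. In simulated data of the same size, 62.5% of the regions changed 2.5-fold were recovered by this test. The spread of the simulated counts was set by hand and not taken from these libraries, so the share need not hold for them. The folds of the same region differed by a median of 0.22 between the normal replicates and 0.17 between the starved replicates on the log2 scale. Between a normal and a starved list they differed by a median of 0.15 to 0.20.

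The study's 1.8-fold cutoff was applied to the IP/input of regions, in the same direction in both replicates. By this rule 4 of the 870 regions were higher and 2 lower upon starvation, against 0.230% and 0.322% of all regions. The study compared RIP peaks between conditions and was not limited to regions called in all 4 lists. Its counts rest on another set, and these do not test them. The *Fosb* region (chr7:19302641-19305460) had folds of 2.68 and 3.19 under normal conditions and 6.30 and 6.46 upon starvation. FosB is a subunit of the AP-1 transcription factor and a product of the immediate early response. Its input reads were 188 and 574 under normal conditions and 10 and 26 upon starvation, so the higher ratio stood on few reads. The *Fignl2* region (chr15:101050271-101053690), of a gene related to fidgetin, had 8.44 and 27.5 under normal conditions and 4.11 and 7.80 upon starvation, on 4 input reads in normal replicate 2. The other 4, *Apln*, *Pou2f1* and *Usp31* higher and *Tspyl5* lower, had at most 3 input reads in at least 1 list. In *Tspyl5* normal replicate 1 the ratio of 20.4 rested on 76 IP and 3 input reads (95% exact Clopper-Pearson interval 6.73 to 101, which covers counting error only). The test of the ratio gave an edgeR adjusted p of 0.999 for each of the 6.

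Among regions with at least 20 IP reads and more than 3 input reads in every list, 803 of the 870, the largest shared increases of IP/input were in *Fosb*, *Lif* and *Mtf1* and the largest shared decreases in *Fignl2*, *Fut10* and *Tmem268*. *Mtf1*, which encodes a metal-responsive transcription factor, had folds of 5.56 and 2.86 under normal conditions and 8.71 and 5.87 upon starvation, on 62 to 176 IP reads. *Fut10*, a fucosyltransferase gene, had 4.84 and 3.97 and then 2.79 and 2.52. *Tmem268* had 4.95 and 5.96 and then 3.14 and 3.03. In *Fut10* and *Tmem268* the conditions did not overlap, and in *Mtf1* starved replicate 2 lay only just above normal replicate 1. These regions were picked for their change, and the values are a description. The edgeR ratio changes of the regions with the smallest p were 1.93 ± 0.55 for *Usp31*, 1.47 ± 0.42 for *Lif* and 1.06 ± 0.30 for *Fosb* among those higher, and -2.91 ± 0.78 for *Kcne4*, -1.66 ± 0.49 for *Tspyl5* and -0.85 ± 0.27 for *Tmem268* among those lower (log2 ± SE, edgeR adjusted p = 0.999 for each). *Kcne4* had 47 and 12 IP reads on 2 and 0 input reads under normal conditions. With the floor of 3 input reads its folds were 12.6 and 4.0 and then 2.72 and 4.1, so its replicate 2 hardly changed.

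**Figure D3:**
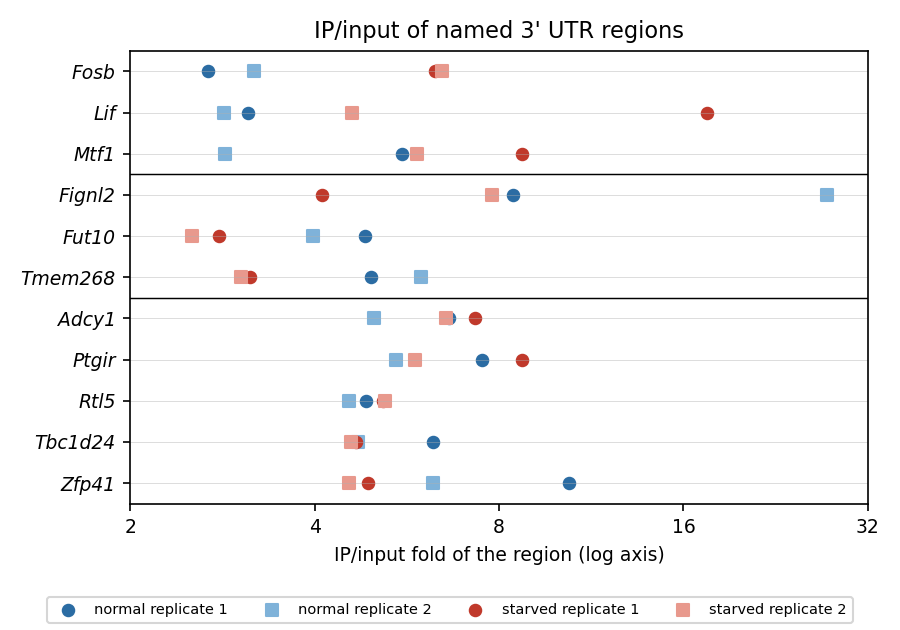
IP/input fold (log axis) of 11 3' UTR regions in the 4 lists. They were chosen among regions with at least 20 IP reads and more than 3 input reads in every list. Horizontal lines part the 3 regions with the largest shared increase (top), the 3 with the largest shared decrease (middle) and the 5 with the highest lowest fold (bottom); *Fosb* lies at 2.68 and 3.19 under normal conditions and 6.30 and 6.46 upon starvation.

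The reads per base of some 3' UTRs changed upon starvation, in the IP and in the input, and how many were called depended on the fit. Of the 870 regions, 4 had more IP reads per base upon starvation, against 0.184% of all regions, and 11 had fewer, against 0.888% of all regions (edgeR's quasi-likelihood test, adjusted p under 0.05). At this threshold, 5 had more input reads per base, against 0.276% of all regions, and 12 had fewer, against 0.827% of all regions. In percent of the 870 regions, the IP calls came to 0.460% higher and 1.26% lower and the input calls to 0.575% and 1.38%. DESeq2 called 32 in the IP and 28 in the input, given here without the share over all regions. A fit without 1 library leaves 1 replicate in a condition. Over such fits the IP count moved in both directions, and the input count only rose. Lower calls outnumbered higher ones in the IP with DESeq2, 22 against 10. In the input without normal replicate 2 lower calls did not outnumber higher ones. The calls required the offset for the length of the called peaks. Without it 0 regions were called in either fit, at a smallest adjusted p of 0.105 in the IP and 0.0793 in the input. The 12 regions called in both fits had the same direction in both. As whole cultures were lysed, fewer cells making an RNA and less of it per cell cannot be told apart.

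The regions that fell in the IP were those of *Spry4*, *Rgs16*, *Lif*, *Fosb*, *Smad7*, *Enc1*, *Trib1*, *Zfp568*, *Amotl2*, *Asb1* and *Csf1*. *Rgs16*, a GTPase activator that shuts off G protein signalling (chr1:153743431-153745580), had 10001 and 8704 IP reads under normal conditions and 525 and 630 upon starvation. Its input reads were 2776 and 3745 and then 70 and 147. Both the IP and the input thus lay far lower in both starved replicates, and the fold over input was 2.91 and 2.32 and then 3.21 and 2.86. Per base the IP fell by 3.92 ± 0.23 on the log2 scale (SE, edgeR adjusted p = 5.46e-04) and the input fell by 4.11 ± 0.25 (edgeR adjusted p = 1.34e-04). *Spry4*, an inhibitor of receptor tyrosine kinase signalling to Ras (chr18:38586191-38590990), had 11884 and 18474 IP reads and then 141 and 557, and 2664 and 4440 input reads and then 3 and 62. The IP fell by 5.00 ± 0.27 and the input by 5.78 ± 0.46 on the log2 scale (edgeR adjusted p = 5.46e-04 and 7.27e-04). Its ratio in starved replicate 1, 20.1, rested on these 3 input reads (95% exact Clopper-Pearson interval 6.75 to 98.9), and the called peaks shrank there from 4730 and 4800 bases to 1080.

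*Lif*, a cytokine of the interleukin-6 family (chr11:4268811-4272530), had 1478 and 2115 IP reads under normal conditions and 204 and 83 upon starvation, on 383, 744, 5 and 12 input reads. The IP fell by 2.47 ± 0.25 per base (log2 ± SE, edgeR adjusted p = 0.00781) and the input by 3.89 ± 0.58 (edgeR adjusted p = 0.0138). Its called peaks covered 3520 and 3720 bases and then 1750 and 540, so the starved values describe the part of the region still called. *Fosb* had 624 and 1832 IP reads and then 147 and 252, and fell by 2.15 ± 0.34 (edgeR adjusted p = 0.0300), while its input fell by 3.24 ± 0.39 (edgeR adjusted p = 0.00493). In both genes all the starved values lay below all the normal values, and the input fell by more than the IP. The difference between the 2 falls is the ratio given above, which did not pass its test.

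Of the other regions that fell, *Smad7*, which encodes the inhibitory SMAD of TGF-beta signalling (chr18:75393581-75395910), had 9197 and 11983 IP reads and then 2744 and 3759. Its folds were 3.27 and 3.27 and then 3.18 and 3.13, while the IP fell by 2.13 ± 0.24 per base (edgeR adjusted p = 0.00947). *Enc1*, an actin-binding kelch protein gene (chr13:97250311-97253060), had 4650 and 7512 and then 1796 and 2504 IP reads, and fell by 2.01 ± 0.28 (edgeR adjusted p = 0.0198). *Trib1*, a pseudokinase gene (chr15:59654021-59656640), had 1319 and 2497 and then 393 and 779, and fell by 1.76 ± 0.28 (edgeR adjusted p = 0.0300). *Csf1*, the macrophage colony-stimulating factor (chr3:107740951-107743390), had 41085 and 46641 and then 34169 and 28962, the largest counts of the group. It fell by 1.07 ± 0.17 per base in the IP (edgeR adjusted p = 0.0281) and by 1.35 ± 0.19 in the input (edgeR adjusted p = 0.0110). *Zfp568*, *Amotl2* and *Asb1* completed the 11, with IP changes of -1.59, -1.45 and -1.17. *Zfp568* and *Asb1* did not pass in the input, at input changes of -2.43 ± 0.58 and -1.28 ± 0.27 (edgeR adjusted p = 0.110 and 0.0624). In the input alone *Gfod1*, *Iffo2* and *Rhob*, a small GTPase gene, also fell, by 1.23, 1.36 and 1.15.

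The regions that rose were *Mnt*, *Pml*, *Fnip2* and *Rgma* in the IP. *Mnt*, a partner of MAX that represses MYC target genes (chr11:74841961-74845700), had 2138 and 2117 IP reads under normal conditions and 17052 and 12438 upon starvation. Its input reads were 578 and 677 and then 2199 and 2306, and its fold was 2.98 and 3.13 and then 3.32 and 3.6. Each starved value was above each normal value in the IP and in the input. Per base the IP rose by 2.09 ± 0.22 (log2 ± SE, edgeR adjusted p = 0.00781) and the input by 1.91 ± 0.23 (edgeR adjusted p = 0.00520). *Pml*, the scaffold of PML nuclear bodies (chr9:58218201-58220710), had 42 and 65 IP reads and then 3628 and 2976, but on peaks of 240 and 200 bases under normal conditions and of 2190 and 2170 upon starvation. Per base its IP rose by 2.03 ± 0.27 (edgeR adjusted p = 0.0189) and its input by 2.48 ± 0.39 (edgeR adjusted p = 0.0194). The peaks of all 4 lists shared 0 bases of this region, so the values per base come from different stretches of it.

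*Fnip2*, a partner of folliculin in amino acid and AMPK signalling (chr3:79457071-79459930), had 348 and 871 IP reads and then 1751 and 3059, a rise of 1.35 ± 0.23 per base (edgeR adjusted p = 0.0408). Its input change, 1.44 ± 0.31, did not pass (edgeR adjusted p = 0.0709), though DESeq2 called it. The region holds 1744 bases with a copy of at least 95% identity elsewhere in the genome, so its reads are uncertain. *Rgma*, a membrane-anchored co-receptor of BMP ligands (chr7:73417091-73419830), had 781 and 994 and then 4522 and 3166 IP reads, and rose by 1.25 ± 0.22 (edgeR adjusted p = 0.0489). In the input *Bcl2l11*, which encodes the pro-apoptotic BIM, and *Wnt9a*, a Wnt ligand, also rose, by 1.51 ± 0.30 and 1.5 ± 0.29 (edgeR adjusted p = 0.0460 and 0.0428). Their IP changes were 1.10 ± 0.23 and 1.39 ± 0.34 and did not pass (edgeR adjusted p = 0.0957 and 0.155). Of the 15 IP calls, 8 held whichever library was left out: those of *Spry4*, *Rgs16*, *Lif*, *Fosb*, *Smad7*, *Enc1*, *Mnt* and *Pml*. The calls of *Amotl2*, *Rgma*, *Trib1* and *Zfp568* were lost without starved replicate 1, and those of *Asb1*, *Csf1* and *Fnip2* without either starved replicate.

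**Figure D4:**
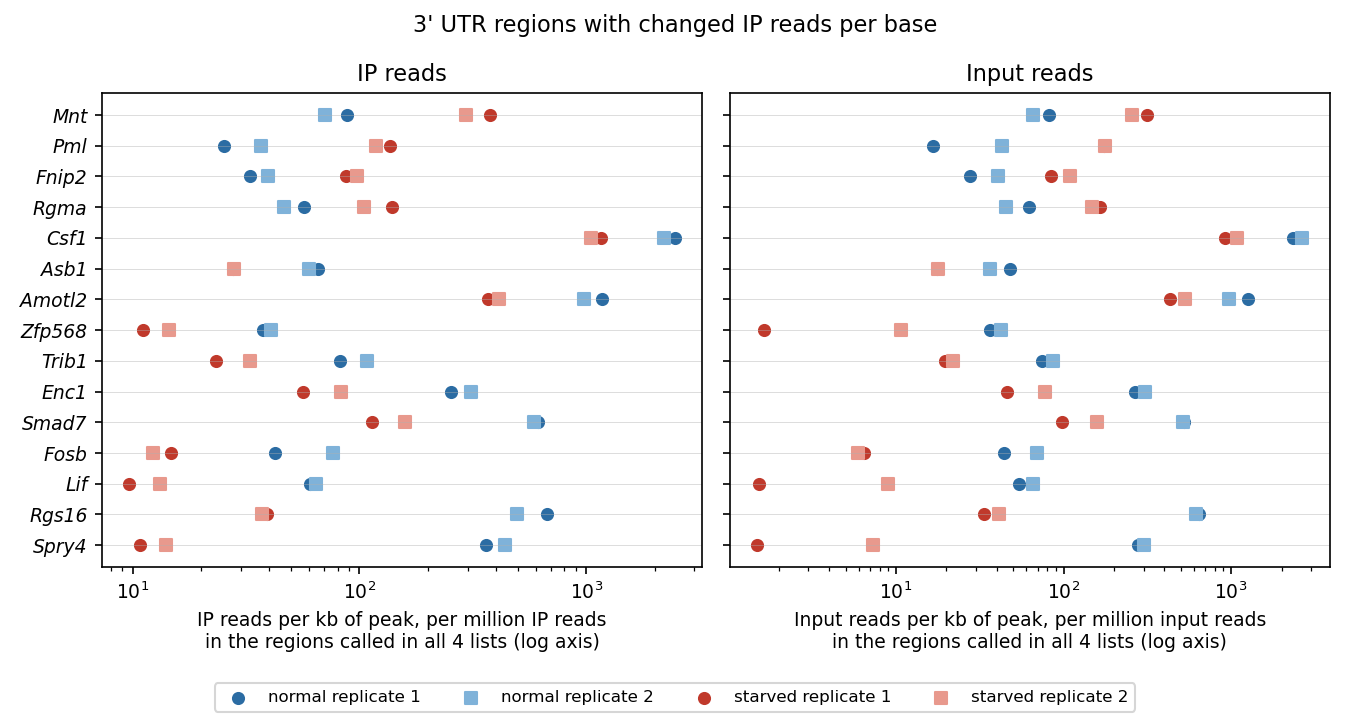
IP reads (left) and input reads (right) per kb of called peak, scaled to 1000000 reads in the regions called in all 4 lists (log axes) for the 15 3' UTR regions called in the IP, 1 point per library; some points overlap. In each region both starved IP points lie on the same side of both normal points, and the input panel shows the same order.

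Across the 870 regions the IP and input changes went together. Their median absolute difference was 0.12 on the log2 scale and their Pearson correlation 0.874 across regions, which are not independent replicates and which share the called peak ends in both measures. Every peak counted also had to reach an IP/input of at least 2 in its own list. This filter limits how far the IP and input changes could part, so the 2 values are a description only. Of the regions called in the input, 13 of 17 held in every fit without 1 library. *Bcl2l11* was lost without normal replicate 1, and *Gfod1*, *Iffo2* and *Wnt9a* without starved replicate 1.

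**Figure D5:**
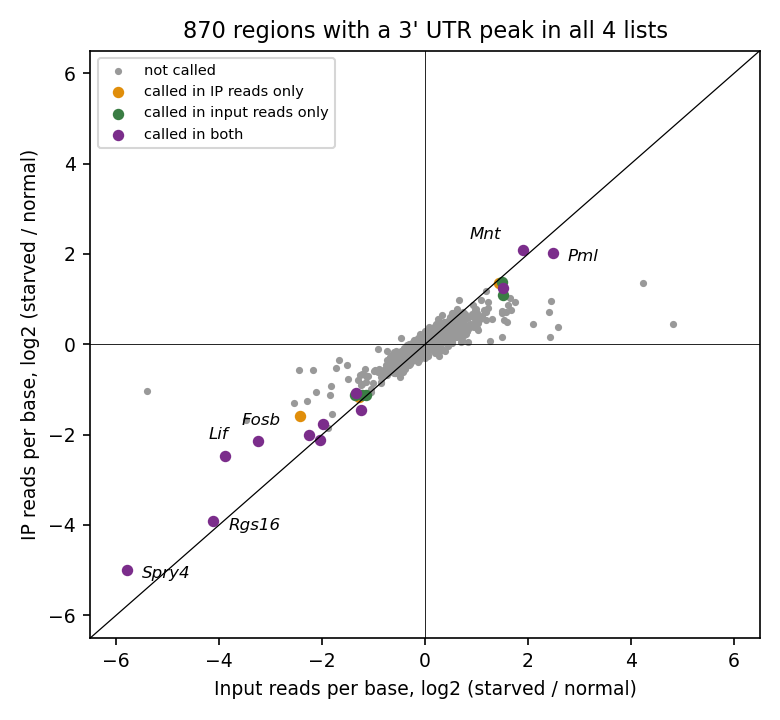
Change in IP reads per base (vertical, log2 starved over normal) against change in input reads per base (horizontal, log2) for the 870 3' UTR regions, with the regions called in either fit coloured and the line of equal change drawn. The called regions lie near the line, with *Spry4* at -5.78 and -5.00 and *Mnt* at 1.91 and 2.09 (input, then IP), and *Lif* and *Fosb* lie above it.

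Where a gene with a called 3' UTR region also had exon regions in all 4 lists, the 2 kinds of region were set side by side. The median IP change of the exon regions was -1.99 for *Smad7* (3' UTR -2.13), -1.86 for *Fosb* (-2.15), -1.15 for *Csf1* (-1.07) and 1.92 for *Mnt* (2.09). Others were further apart. The exon region of *Pml* changed by 0.25 in the IP and -0.06 in the input, against 2.03 and 2.48 in the 3' UTR. In the latter the peaks of all 4 lists shared 0 bases, so its values come from different stretches. The exon region of *Rgma* changed by 0.78 and 0.75, against 1.25 and 1.51, and that of *Trib1* by -1.46 and -1.12, against -1.76 and -1.98. These differences were not tested. Over the 494 genes with both kinds of region, the IP changes had a median absolute difference of 0.11 between 3' UTR and exon and the input changes of 0.19. The Pearson correlation across genes, given as a description, was 0.860 for the IP, 0.718 for the input and 0.317 for the ratio.

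No 3' UTR region of an autophagy gene passed edgeR's test of the IP, the input or the ratio. Of 47 genes of autophagy and the lysosome, 14 had a 3' UTR peak in any list and 4 a region in all 4 lists. For this and the gene lists below, the share of all genes with a 3' UTR peak was not determined. These counts therefore do not show that a list had more or fewer peaks than other genes. *Wipi2*, which binds phosphatidylinositol 3-phosphate at forming autophagosomes, had 2252 and 1927 IP reads and then 4965 and 3337, a change of 0.15 ± 0.21 per base (edgeR adjusted p = 0.889). *Atg13*, a subunit of the ULK1 kinase complex, had 869 and 732 and then 2384 and 1424, a change of 0.46 ± 0.22 (edgeR adjusted p = 0.544). *Zfyve1*, which encodes the omegasome marker DFCP1, had 201 and 252 and then 1489 and 895, a change of 1.17 ± 0.25 (edgeR adjusted p = 0.103). *Zfyve26*, which encodes spastizin, had 73 and 283 and then 468 and 634, a change of 0.71 ± 0.23 (edgeR adjusted p = 0.299). Raw reads are not scaled for the deeper starved lists. Scaled per kb of peak and to 1000000 reads, the IP level of *Wipi2* was 123 and 129 and then 151 and 127, which overlap. The scaled IP levels of *Atg13* were 68.9 and 55.3 and then 96.4 and 72.8. Those of *Zfyve1* were 46.8 and 34.0 and then 106 and 73.9, and those of *Zfyve26* 20.3 and 22.9 and then 33.2 and 38.1. How many of the 870 regions had both starved levels above both normal levels was not counted, so this order is not read as a trait of autophagy genes. The IP/input ratio of *Zfyve1* changed by -0.04 ± 0.24. The median of the 4 was 0.59 in the IP and 0.77 in the input, beside 0.01 and 0.03 over the 870 regions. At an unadjusted p under 0.05, 2 of the 4 were higher in the IP and 2 in the input, beside 50 and 46 of the 870 regions. DESeq2 called 1, *Zfyve1*, higher in the IP, beside 10 of the 870, and 0 in the input.

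Of 29 genes of mTORC1 and AMPK signalling, 10 had a 3' UTR peak in any list and 5 a region in all 4 (*Fnip2*, *Prkab2*, *Rictor*, *Rptor*, *Tsc1*). Among their 6 regions edgeR called 1 in the IP, *Fnip2*, and 0 in the input, and DESeq2 called *Fnip2* in both. At an unadjusted p under 0.05, 2 of the 6 were higher in the IP and 1 in the input, beside the 50 and 46 of all 870. *Tsc1*, whose product inhibits mTORC1, had 57 and 97 IP reads and then 906 and 1138, but on longer peaks, and its change per base was 0.67 ± 0.27 (edgeR adjusted p = 0.431). Of 26 genes of FOXO and insulin signalling, 14 had a 3' UTR peak and 6 a region in all 4 lists, with 0 of 7 regions called in either fit by edgeR or DESeq2 and 1 lower in the IP at an unadjusted p under 0.05. *Igf1r*, the receptor of insulin-like growth factor 1, had 8548 and 15053 IP reads and then 15479 and 18539, with folds of 2.84, 2.87, 3.09 and 2.84, and *Insr*, the insulin receptor, folds of 3.13, 2.46, 2.48 and 2.31. Of 22 genes of the m6A machinery, 6 had a 3' UTR peak (*Alkbh5*, *Igf2bp1*, *Rbm15*, *Ythdf1*, *Ythdf2*, *Ythdf3*) and 2 a region in all 4 lists. *Alkbh5*, an m6A demethylase, had 6777 and 11393 and then 14387 and 15577 IP reads and a change of 0.11 ± 0.21 (edgeR adjusted p = 0.920). Neither region was called by edgeR or DESeq2, and 1, *Igf2bp1*, was lower in the IP and the input at an unadjusted p under 0.05.

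Of 38 immediate-early and growth factor response genes, 15 had a 3' UTR peak and 3 a region in all 4 lists. *Spry4* and *Fosb* fell, as above, and *Fosl2*, a further AP-1 subunit, had a change of 0.08 ± 0.20 (edgeR adjusted p = 0.939) on 19039 to 41340 IP reads. Of 44 genes of TGF-beta, BMP and Wnt signalling, 24 had a 3' UTR peak and 7 a region in all 4 lists. *Smad7* alone of their 9 regions passed, and *Smad3*, a receptor-activated SMAD, had a change of 0.36 ± 0.20 (edgeR adjusted p = 0.647) with folds of 3.50, 4.25, 3.66 and 4.33. Of 31 genes of mRNA decay and AU-rich element binding, 14 had a 3' UTR peak and 4 a region in all 4 lists (*Dcp2*, *Ddx6*, *Edc3*, *Elavl1*), with 0 called by edgeR or DESeq2 and 1, *Elavl1*, which encodes the HuR protein, lower in the IP and the input at an unadjusted p under 0.05. Reads in *Ddx6* were 5286, 9032 and 11173 in normal replicates 1 and 2 and starved replicate 1 but 21 in starved replicate 2, where a peak of 200 bases was called, and 887 bases of the region have a near-identical copy. Of 16 miRNA pathway genes, 7 had a 3' UTR peak and 3 a region in all 4 lists (*Ago1*, *Dicer1*, *Tnrc6b*), with 0 called by edgeR or DESeq2 and 0 at an unadjusted p under 0.05. Of 32 extracellular matrix and adhesion genes, 4 had a 3' UTR peak (*Col5a1*, *Itga5*, *Itgb1*, *Thbs1*) and 0 a region in all 4 lists.

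Some 3' UTRs held many separate regions. *Ubxn7*, an adaptor of the p97 ATPase, had 12 separate 3' UTR regions, *Cdk6*, a G1 kinase, 10 and *Lsm11*, a component of the U7 snRNP, 9, as many as *Unc5c* and *Zfp704*. None of the 12 regions of *Ubxn7* and none of the 9 of *Lsm11* was called in all 4 lists, whereas 2 of *Cdk6* and 3 of *Zfp704* were. *Unc5c*, a netrin receptor gene, had 8 of its peaks in normal replicate 2, 0 in normal replicate 1 and 1 and 2 in the starved lists.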

How the data were processed

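RIP-seq peaks of 4 IP libraries of MEFs were used. The authors used Trimmomatic for trimming, TopHat2 2.0.13 for alignment to mm10, diffReps for calling peaks of each IP library against an input, and HOMER for annotation. The authors deposited, per peak, IP and input values as a signal (reads multiplied by 1 factor per library, and for normal replicate 2 plain counts of reads), their log2 ratio, and p-values, of which the p of the peak was used as the study's threshold. Dividing the signal by the factor gave whole reads for 100% of values within 0.1. Each list was taken to use the input of its own condition and replicate, which it does not name. Library depth is unknown, since the lists hold called peaks only.

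Genes were taken from the annotated transcript, since the deposited nearest-promoter name was another gene for 59.6% to 61.5% of the 3' UTR peaks. Peaks of any annotation that overlapped by 1 bp were merged into regions, and reads were summed over all the peaks of a region. The test over the 6531 regions present in each list was that of edgeR 4.0.16 (R 4.3.3, quasi-likelihood test, TMM, Benjamini-Hochberg, threshold 0.05; offset for peak length in the IP and input fits), with DESeq2 1.42.0 as an alternative. On simulated counts for these 6531 regions, 200 of them changed 2.5-fold, the test recovered 62.5% (ratio), 69% (IP) and 45.5% (input), with 5, 4 and 0 false calls. The simulated spread was set by hand, and the simulated libraries held no deviation shared by a replicate number. Control windows of 200 bp were tiled over 3' UTR sequence of the same genes outside peaks of every list.

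Named regions were those called in the IP or input fit, those of 9 gene lists, the 3 in each direction with the largest shared change of IP/input, the 3 in each direction with the smallest p of each fit, the 5 with the highest lowest fold, the 5 with the most IP reads per kb and the 3 genes with the most regions. *Unc5c* and *Zfp704*, tied with the last of these, and the 6 regions of the 1.8-fold rule were named after their values were seen. Picks by fold or by shared change were made among regions with at least 20 IP reads and more than 3 input reads in every list. The members and lists were chosen with earlier results of these data known. The kit keeps strand, but the peaks carry none, so antisense transcripts cannot be told apart. The alternatives and fits without 1 library are given in the closing section.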

Additional observations from a re-analysis of the deposited data

Results flagged for a closer look

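Some peaks outside the annotated 3' UTR class had their centre in a 3' UTR of a later annotation, GENCODE vM21, which the comparisons above do not use. They numbered 1558 in normal replicate 1, 2010 in normal replicate 2, 2210 in starved replicate 1 and 2238 in starved replicate 2. The largest group of them, 769 to 1375 per list, was annotated as exon, 284 to 462 as TTS and 212 to 277 as intergenic.

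The 3' UTR of *Foxo3*, a transcription factor gene of autophagy, was among them. Its 3' UTR (RefSeq, chr10:42181845-42186295, minus strand) lay in a region (chr10:42181761-42186500) whose peaks were annotated as intergenic or TTS. The region held 2398 and 4528 IP reads under normal conditions and 8686 and 8948 upon starvation, on 672 and 1087 and then 1216 and 1524 input reads. The IP/input fold was 2.88 and 4.17 and then 3.06 and 3.91, so the conditions overlapped in the ratio and not in the reads. The IP change per base was 0.85 ± 0.23 on the log2 scale (SE, edgeR adjusted p = 0.211) and the input change 0.87 ± 0.22 (edgeR adjusted p = 0.133).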

How the results depend on the processing

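The count of 0 regions with a changed IP/input ratio became 1 without starved replicate 2 (0 to 1 over the 4 fits without 1 library) and stayed 0 in the other alternatives. The 15 IP calls became 32 with DESeq2, 9 with 50% reciprocal overlap, 0 of 64 regions with an IP/input of at least 4, 0 without the peak length offset, 24 when a 3' UTR peak in at least 1 list sufficed (chosen after seeing the data), and 10 to 33 without 1 library. The 17 input calls became 28 with DESeq2 (85 regions had no adjusted p), 0 with an IP/input of at least 4, 0 without the offset, 28 with a 3' UTR peak in at least 1 list, and 21 to 38 without 1 library. With the replicate number as a block, 108 IP regions (56 higher, 52 lower) and 105 input regions (54 higher, 51 lower) were called, so the excess of lower calls was lost. The counts of the alternatives are given without the share over all regions, so they do not show an excess in 3' UTRs. The labels do not say that a number marks a shared batch, and deviations of same-numbered libraries correlated at 0.526 in the IP and 0.434 in the input. The 6 regions of the 1.8-fold rule became 17 at 1.5-fold, 10 by the highest-fold peak, 1 with 50% reciprocal overlap, 10 with a 3' UTR peak in at least 1 list, and 30 to 49 when 1 replicate number was left out and the other had to pass alone. Its 4 higher and 2 lower turned to 15 and 34 without replicate 2, 4 and 6 with a peak in at least 1 list, and 4 and 5 with 1 read added. The share of 3' UTR peaks, 14.6% on average, became 23.4% with GENCODE (13.8% to 15.7% without 1 list). The median position, 39.4% on average, became 44.5% for peaks of at most 600 bp (38.9% to 40% without 1 list). The GGAC difference of 12.8 points was 12.2 to 13.6 without 1 list, and the fold difference to other peaks 0.02 to 0.07. Regions called in the IP or input kept their sign in the alternatives in which they could be matched, which leaves out the one with an IP/input of at least 4. With total reads in place of TMM, 1 of the 15 IP calls and 4 of the 17 input calls were lost. The causes of these differences were not tested. With 2 replicates per condition the exact tests cannot reach 0.05.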

Other observations

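With GENCODE 3' UTRs, peaks in all 4 lists were found for further genes of the lists. They added *Rbm15* to the m6A machinery, *Bmf*, which encodes a BH3-only protein, to autophagy and the lysosome, and *Foxo3* and *Irs2*, an insulin receptor substrate gene, to FOXO and insulin signalling. To mTORC1 and AMPK signalling they added *Eif4ebp2*, *Flcn* and *Mlst8*, and to the miRNA pathway *Ago2*, *Ago3* and *Tnrc6a*. *Lrp5*, a Wnt co-receptor gene, was added to TGF-beta, BMP and Wnt signalling. The immediate-early, mRNA decay and extracellular matrix lists gained none.

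In 3' UTR regions the change of IP/input had the same direction in both replicates in 516 of 870, or 59.3%, beside 53.3% of all regions.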
